A study of Homo sapiens with 24 samples.

Results

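MEIS1, PBX3 and MEF2C were measured as part of a list of 10 genes made up of the HOXA cluster and its partners in leukemia with a rearranged KMT2A gene. The members were the probe sets of the array that the platform annotation assigns to a listed gene alone. This rule found 3 of the 10 genes, with 6 probe sets, among 19775 genes that have a probe set of their own. MEIS1 had 2 probe sets, PBX3 had 1 and MEF2C had 3, and the brightest on average over the arrays was taken as the main probe set of a gene. The other 7 genes (HOXA3, HOXA4, HOXA5, HOXA6, HOXA7, HOXA9 and HOXA10) have no probe set named for them alone in the annotation used, and they were not analysed here. Every result below is therefore about the cofactors and MEF2C, not about the HOXA genes themselves.

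The study treated MOLM-14 and MV4-11 cells for 24 h with ABT-869 plus SAHA (the combination), SAHA, ABT-869 or the vehicle DMSO, with 3 cultures in each of the 8 groups and 1 Affymetrix U133 Plus 2.0 array per culture. Both are established human acute myeloid leukemia lines with an internal tandem duplication of FLT3 (FLT3-ITD). The paper describes MV4-11 as carrying only the mutated allele and MOLM-14 as also keeping a wild-type allele, and it describes the triplicates as biological. ABT-869 is an inhibitor of receptor tyrosine kinases that include FLT3. SAHA is an inhibitor of histone deacetylases. The methods give 3 nM ABT-869 and 6 µM SAHA, with the doses within the combination not restated. Each line is a single cell line grown in culture, so the arrays carry no spread between patients.

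As background, KMT2A is a histone methyltransferase that keeps HOX genes active in early blood cells. Both lines are known to carry a KMT2A fusion, KMT2A-AFF1 in MV4-11 and KMT2A-MLLT3 in MOLM-14. The fusion proteins bind chromatin with menin and PSIP1 and recruit elongation factors and DOT1L, and HOXA9, MEIS1, PBX3 and MEF2C are among their best known targets. MEIS1 and PBX3 are homeodomain proteins of the TALE class that bind DNA together with HOXA proteins. MEF2C is a MADS-box transcription factor of myeloid progenitors, and class IIa histone deacetylases bind MEF2 proteins.

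Signals are linear values per probe set as the authors deposited them, and changes are differences of log2 signal from limma with the standard error. A change was counted as called at a Benjamini-Hochberg adjusted p under 0.05 over 54613 probe sets. The median signal of an array was between 61.2 and 80.6 in MOLM-14 and between 78.5 and 99.4 in MV4-11. Some arrays deviated from the mean of their group by over 0.3 on the log2 scale (SD over probe sets above the median signal), namely MOLM-14 combination replicate 1, MOLM-14 DMSO replicate 3, MV4-11 combination replicates 2 and 3 and MV4-11 ABT-869 replicate 2. Of 18 monocyte and macrophage markers 14 were above a signal of 32 on every array, as were 7 of 10 granulocyte and progenitor markers, among them AZU1 and ELANE. Of the erythroid and T cell markers, 1 of 6 in each list was above 32 on every array, as were 3 of 5 B cell markers (among them PAX5, at 400.8 or more, and CD79A, at 140.3 or more) and 3 of 8 stromal and epithelial markers (among them KRT18, at 487.9 or more). CD14 was between 4.1 and 54.6. Precision is limited by the number of arrays. The smallest p of an exact permutation test with 3 arrays in each group is 0.1. Arrays that do not overlap between 2 groups reach only that p. The share of all probe sets without overlap was not counted, so non-overlap is given below as a description only.

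The 250 bases before the transcription start are shown for the 3 genes, because their signals were lowest in the same group. The windows are from RefSeq (GRCh38.p14), where all 3 genes were matched. Capitals mark TGACAG or its reverse complement CTGTCA, the letters of the binding motif of MEIS proteins, searched on both strands with no other motif searched.
MEIS1, chr2:66434875-66435124, plus strand: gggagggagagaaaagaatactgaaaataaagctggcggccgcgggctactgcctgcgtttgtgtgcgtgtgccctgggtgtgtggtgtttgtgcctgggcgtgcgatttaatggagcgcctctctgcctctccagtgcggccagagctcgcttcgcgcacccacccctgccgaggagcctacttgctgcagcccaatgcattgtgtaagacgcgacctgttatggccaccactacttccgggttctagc
PBX3, chr9:125747933-125748182, plus strand: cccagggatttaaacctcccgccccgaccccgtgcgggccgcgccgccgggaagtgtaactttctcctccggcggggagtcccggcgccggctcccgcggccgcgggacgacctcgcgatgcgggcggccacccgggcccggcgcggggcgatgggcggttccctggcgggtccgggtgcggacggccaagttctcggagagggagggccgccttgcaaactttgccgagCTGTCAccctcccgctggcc
MEF2C, chr5:88904106-88904355, minus strand: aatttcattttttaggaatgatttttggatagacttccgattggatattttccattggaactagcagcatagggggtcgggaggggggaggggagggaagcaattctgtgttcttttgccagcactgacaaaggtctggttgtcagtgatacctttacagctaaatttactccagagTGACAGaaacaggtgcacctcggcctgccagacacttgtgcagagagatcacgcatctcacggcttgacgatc
MEF2C has 7 annotated starts, and its most upstream start is shown. The motif was in the PBX3 window, in 3 of the 7 MEF2C windows and not in the MEIS1 window, that is in 4 of 9 windows, and 13% of all 35116 windows of this length hold it. The PBX3 window held 36 CpG and 75.6% G and C bases, and 4.85% of all windows hold as many CpG. The MEIS1 window held 16 CpG and the MEF2C window shown held 6, against a median of 11 over all windows.

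Over the 8 groups, each of the 3 genes had its highest mean signal in MV4-11 cells with DMSO and its lowest in MV4-11 cells with the combination. The span between these groups was 1.40-fold for MEIS1, 1.61-fold for PBX3 and 1.58-fold for MEF2C, so no member reached a 2-fold change between any of the groups. In MV4-11 the combination was below each drug alone for all 3 genes. In MOLM-14 the members had a narrower range, and their lowest groups differed, ABT-869 for MEIS1, SAHA for PBX3 and the combination for MEF2C.

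**Figure D1:**
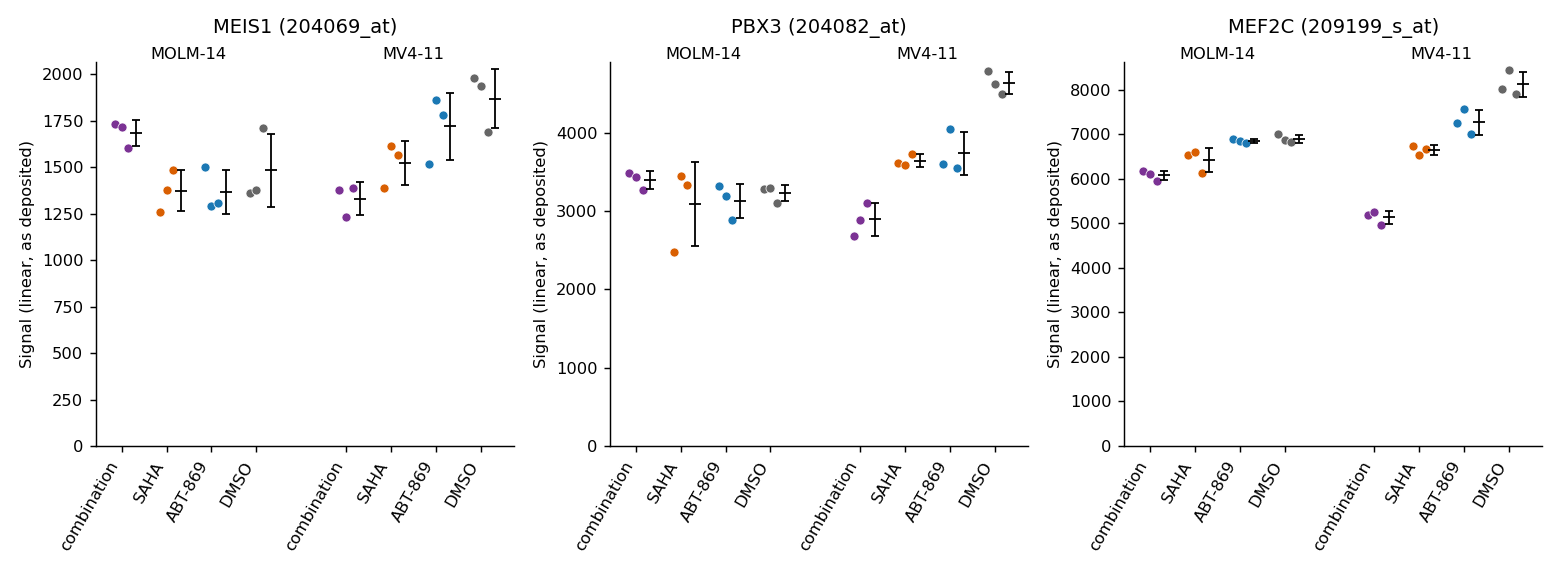
Linear signal of MEIS1, PBX3 and MEF2C (main probe sets) on each array, by line and treatment. Points are single arrays and bars are the mean and SD of 3 arrays. The MV4-11 combination arrays lie below all MV4-11 DMSO arrays in each panel, at 4963.2 to 5255.5 against 7900 to 8444.1 for MEF2C.

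The untreated state of the lines was compared first. PBX3 was lower in MOLM-14 than in MV4-11. Its signals were 3277.8, 3289.6 and 3106.6 on the MOLM-14 DMSO arrays, against 4784.4, 4624 and 4497.9 on the MV4-11 DMSO arrays, with no overlap. The log2 difference was −0.52 (standard error 0.115, adjusted p = 0.00678 from limma), or 30.4% lower in MOLM-14. MEF2C averaged 6891.4 ± 89.6 in MOLM-14 and 8115.97 ± 289 in MV4-11 (SD, n = 3 each). Its arrays did not overlap either, but the difference of −0.24 did not pass the test (adjusted p = 0.0552 from limma). MEIS1 had signals of 1363.8, 1375.7 and 1711.2 in MOLM-14, against 1983, 1936.4 and 1691.6 in MV4-11. The highest MOLM-14 array lay above the lowest MV4-11 array, and the difference of −0.34 was not called (adjusted p = 0.0898). The call for 1 of 3 members stands beside 10.1% of all probe sets called between the lines. The median log2 difference over all probe sets was −0.15, and that of the members was −0.34. The baseline call of PBX3 depended on the scaling and the fit. With each array centred on its median signal its difference was −0.26 (adjusted p = 0.329 from limma), and MEIS1 and MEF2C were then at −0.08 and 0.02. The PBX3 call was also lost when only the groups compared were fitted (adjusted p = 0.121 from limma), with the replicate number as a block (0.0679) and without the most deviant array of each of the 8 groups (0.0795). Its difference in these fits was −0.52, −0.53 and −0.51 in that order. They called 2, 2442 and 1065 of all probe sets, against 5538 as reported, so the first could hardly call any gene.

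The combination lowered PBX3 and MEF2C in MV4-11. PBX3 had signals of 2677.1, 2890 and 3105.4 with the combination, against 4784.4, 4624 and 4497.9 with DMSO. The groups were far apart, and the log2 change was −0.68 (standard error 0.112, 95% interval −0.94 to −0.43, adjusted p = 0.00635 from limma), a signal 37.7% lower. MEF2C had signals of 5177.3, 5255.5 and 4963.2 with the combination, against 8003.8, 8444.1 and 7900 with DMSO. It fell by 0.66 on the log2 scale (standard error 0.101, adjusted p = 0.00456 from limma), 36.8% lower. MEIS1 had signals of 1375.5, 1230 and 1390.7 with the combination, against 1983, 1936.4 and 1691.6 with DMSO. Its arrays did not overlap, and its log2 change of −0.49 (standard error 0.133, 95% interval −0.79 to −0.19) lay just outside the threshold (adjusted p = 0.0532 from limma). In all, 2 of 3 members were called lower and none higher, where 8.94% of all probe sets were called in either direction. The members' median change was −0.66 and that of all probe sets −0.02. Both calls were lost when only the combination and DMSO arrays were fitted (adjusted p = 0.0890 for PBX3 and 0.0853 for MEF2C from limma). That fit called 702 of all probe sets, against 4880 as reported.

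**Figure D2:**
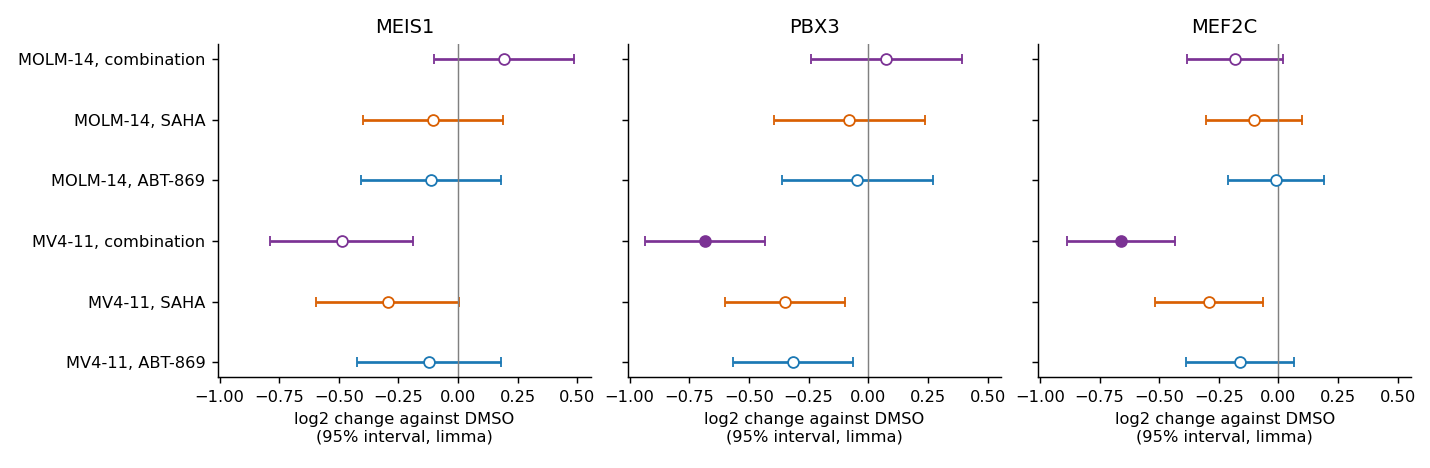
Log2 change of the main probe sets of MEIS1, PBX3 and MEF2C against DMSO for each treatment, with MOLM-14 above MV4-11. Lines are 95% intervals from limma, and filled points passed an adjusted p under 0.05: only PBX3 (−0.68) and MEF2C (−0.66) with the combination in MV4-11 did.

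SAHA alone gave smaller differences in MV4-11, all in the same direction. PBX3 had signals of 3612.1, 3581.2 and 3732 with SAHA, below all 3 DMSO arrays, with a log2 change of −0.35 (adjusted p = 0.159 from limma). MEF2C had 6728.3, 6521.4 and 6669.2 with SAHA, also below all DMSO arrays, with a change of −0.29 (adjusted p = 0.191). MEIS1 had 1390.1, 1614.7 and 1567.5, again without overlap, and its change was −0.29 (adjusted p = 0.324). No member was called with SAHA, and 2.46% of all probe sets were. How many of all probe sets lacked overlap in this comparison was not counted, so the lack of overlap is no support for a change.

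ABT-869 alone left MEIS1 near its DMSO level in MV4-11. MEIS1 had signals of 1518.9, 1861.3 and 1782 with ABT-869, overlapping the DMSO arrays, with a change of −0.12 (95% interval −0.42 to 0.18). PBX3 had 3603.9, 4044.9 and 3550.6, below all DMSO arrays, and changed by −0.31 (adjusted p = 0.265 from limma). MEF2C had 7241.1, 7558.4 and 6994.9, below all DMSO arrays by a smaller margin, and changed by −0.16 (adjusted p = 0.554). None of the 3 was called, against 0.862% of all probe sets, and probe sets without overlap were not counted here either.

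Set against each drug, the combination lowered MEF2C further than ABT-869 did in MV4-11. The change of MEF2C was −0.50 (standard error 0.101, adjusted p = 0.0299 from limma), and the combination arrays, at most 5255.5, lay below all ABT-869 arrays, at least 6994.9. This call was lost when any 1 of the 12 MV4-11 arrays was left out (adjusted p between 0.0526 and 0.0825). PBX3 and MEIS1 each changed by −0.37 against ABT-869 and were not called (adjusted p = 0.117 and 0.191), so 1 of 3 members was called where 3.7% of all probe sets were. Against SAHA the changes were −0.37 for MEF2C, −0.34 for PBX3 and −0.19 for MEIS1, none called (adjusted p = 0.144, 0.232 and 0.601), against 0.749% of all probe sets. The MEF2C and PBX3 arrays of the combination lay below all SAHA arrays, and for MEIS1 the highest combination array (1390.7) just passed the lowest SAHA array (1390.1).

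In MOLM-14 no treatment changed a member at the threshold. With the combination, MEIS1 had signals of 1731, 1719.6 and 1603.8, against 1363.8, 1375.7 and 1711.2 with DMSO. The DMSO group held 1 high array, replicate 3, and the groups overlapped, with a log2 change of 0.19 (95% interval −0.10 to 0.48, adjusted p = 0.509 from limma). PBX3 had 3487.4, 3434.4 and 3265.8 with the combination, against 3277.8, 3289.6 and 3106.6 with DMSO, a change of 0.07 (95% interval −0.24 to 0.39). MEF2C had 6163.6, 6097 and 5955.7 with the combination, against 6993, 6857.4 and 6823.8 with DMSO. For MEF2C the groups did not overlap, and the change was −0.18 (95% interval −0.38 to 0.02, adjusted p = 0.318). None of 3 members was called with the combination in MOLM-14, against 5.96% of all probe sets.

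The single drugs in MOLM-14 gave differences close to 0. SAHA gave −0.11 for MEIS1 (1259.9, 1380 and 1483.1), −0.08 for PBX3 (2470.3, 3451.5 and 3332.5) and −0.10 for MEF2C (6540.2, 6593.3 and 6116.2). The PBX3 value rests on SAHA replicate 1, the lowest of all 24 PBX3 signals, and without that array the change was 0.07. No member was called with SAHA, where 5.32% of all probe sets were and their median change was −0.14. ABT-869 gave −0.11 for MEIS1, −0.05 for PBX3 and −0.01 for MEF2C. MEF2C had 6891.5, 6856.8 and 6800.5 with ABT-869, within the range of its DMSO arrays or just under it, and its 95% interval was −0.21 to 0.19. None was called with ABT-869, against 0.0165% of all probe sets.

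Between the combination and the single drugs in MOLM-14, the main MEIS1 probe set was higher with the combination on all arrays than with either drug. Its 3 combination signals were at least 1603.8, against at most 1483.1 with SAHA and 1502.3 with ABT-869. The log2 differences were 0.30 against each drug and were not called (adjusted p = 0.518 against SAHA and 0.216 against ABT-869, limma). The second MEIS1 probe set, 1559477_s_at, did not separate these groups. Its signals were 404.9 to 521.6 with the combination, 356.4 to 471.9 with SAHA and 413.6 to 482.6 with ABT-869. PBX3 differed by 0.15 against SAHA and 0.12 against ABT-869, and MEF2C by −0.08 and −0.17 in that order, with no call. Of all probe sets, 0.0146% were called against SAHA and 8.03% against ABT-869.

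The response to the combination differed between the lines for all 3 genes. This was tested as the MOLM-14 change minus the MV4-11 change in 1 fit over the 24 arrays. The difference was 0.76 for PBX3 (standard error 0.162, 95% interval 0.42 to 1.10, adjusted p = 0.00757 from limma). For MEIS1 it was 0.68 (standard error 0.171, 95% interval 0.32 to 1.04, adjusted p = 0.0211). For MEF2C it was 0.48 (standard error 0.106, 95% interval 0.26 to 0.70, adjusted p = 0.00953). The call of 3 of 3 members stands beside 6.55% of all probe sets, and the members' median difference was 0.68 against 0.04 over all probe sets. With each array centred on its median signal none of the 3 was called, at differences of 0.66, 0.59 and 0.39 for PBX3, MEIS1 and MEF2C (adjusted p = 0.0836, 0.0715 and 0.180). The MEIS1 call was also lost when 1 of 5 arrays was left out, MOLM-14 DMSO replicate 1 or 2, MV4-11 combination replicate 2 or MV4-11 DMSO replicate 1 or 2 (adjusted p at most 0.0608). For the single drugs the same difference was 0.19, 0.27 and 0.19 with SAHA and 0.01, 0.27 and 0.15 with ABT-869, for MEIS1, PBX3 and MEF2C in that order. None of these was called, where 1.23% of all probe sets were called with SAHA and 0.352% with ABT-869.

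**Figure D3:**
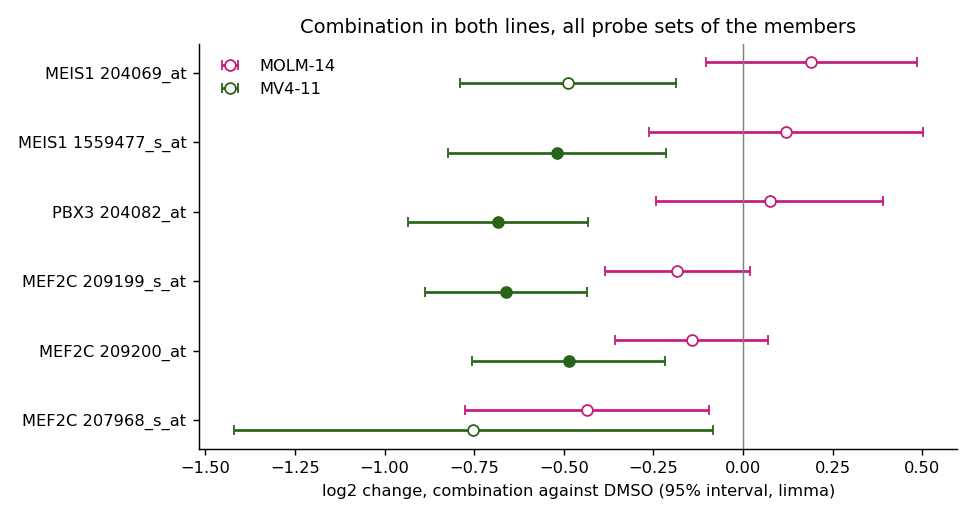
Log2 change with the combination against DMSO for all 6 probe sets of the members, MOLM-14 above MV4-11 in each pair. Lines are 95% intervals from limma and filled points passed an adjusted p under 0.05: in MV4-11 all 6 values are below 0 and 4 passed, and in MOLM-14 none passed.

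The other probe sets of MEIS1 and MEF2C gave the same direction with the combination in MV4-11. For MEIS1, 1559477_s_at had signals of 408.3, 411.7 and 370.9 with the combination, against 501.4, 564.2 and 648 with DMSO, and it fell by 0.52 on the log2 scale (adjusted p = 0.0446 from limma). The 2 MEIS1 probe sets thus lay on different sides of the threshold with nearly the same change. For MEF2C, 209200_at had 3241.6, 3912 and 3727.1 with the combination, against 4730.6, 5275.1 and 5203.2 with DMSO, and it fell by 0.49 (adjusted p = 0.0363). Of the MEF2C probe sets the dimmest, 207968_s_at, had 762, 789.9 and 372.1 with the combination, against 964.1, 1144.1 and 970.3 with DMSO. Its change of −0.75 was not called (adjusted p = 0.168), and combination replicate 3 was the lowest of all 24 arrays for it. The difference between the lines was called for the main probe sets and not for these 3, at 0.64 for 1559477_s_at, 0.34 for 209200_at and 0.32 for 207968_s_at (adjusted p = 0.0779, 0.146 and 0.714).

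Among 11954 genes above the median signal, those with a pattern over the 8 group means most like MEIS1 were CSRNP1, SLC16A5 and CFAP119, with a root mean square difference of 0.067, 0.069 and 0.070 on the log2 scale. SLC16A5 is a monocarboxylate transporter gene. Those most like MEF2C were GPX1, a glutathione peroxidase gene, at 0.015, NEK6, a mitotic kinase gene, at 0.051 and LRIF1 at 0.054. In MV4-11, GPX1 had a combination change of −0.63, close to the −0.66 of MEF2C, and in MOLM-14 it had −0.20, beside −0.18. GPX1 was picked on these same group means, so its closeness follows from the choice. Between members the difference was 0.087 for MEIS1 and PBX3, 0.124 for PBX3 and MEF2C and 0.145 for MEIS1 and MEF2C. The genes named above are nearer by selection, and the rank of the members among all genes was not computed.

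Of 8 other TALE genes measured, none was called with the combination in MV4-11, where 8.94% of all probe sets were. Their median change there was −0.05, against −0.02 over all probe sets. In MOLM-14 1 of the 8 rose, beside 5.96% of all probe sets called. That gene was TGIF1, a TALE repressor, with 2383.87 ± 39.4 with the combination and 1439.03 ± 199 with DMSO in MOLM-14 (SD, n = 3 each), a log2 change of 0.74 (adjusted p = 0.0115 from limma). With DMSO, 2 of the 8 were called lower in MOLM-14 than in MV4-11 and 0 higher, beside 10.1% of all probe sets. Among the lower was PBX2, a paralog of PBX3, at 593.4 ± 16.7 against 968.53 ± 115, a difference of −0.70 (adjusted p = 0.0183 from limma).

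MEF2D, a paralog of MEF2C, fell in MOLM-14 by 0.77 with the combination (1394.2 ± 168, against 2376.77 ± 223 with DMSO, adjusted p = 0.0218 from limma) and by 0.75 with SAHA. Its combination response was 1.33 lower in MOLM-14 than in MV4-11 (log2 difference −1.33, standard error 0.213, adjusted p = 0.000845), the opposite sign to MEF2C. It was 1 of 2 other MEF2 genes measured, and the second was not called in any comparison with DMSO. Of all probe sets, 5.96% were called with the combination in MOLM-14, 5.32% with SAHA there and 6.55% for the combination response between the lines.

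Genes of the KMT2A and menin complexes, which act upstream of the members, were called in both directions. Of 28 measured, all above a signal of 32 on every array, 2 rose and 2 fell with the combination in MV4-11. Of all probe sets, 8.94% were called with the combination in MV4-11, 5.96% in MOLM-14 and 6.55% for the difference between the lines. PSIP1, which tethers menin to chromatin, fell to 4536.13 ± 119 with the combination, against 8781.23 ± 477 with DMSO, so that its log2 signal was 0.95 lower (change −0.95, standard error 0.108, limma, adjusted p = 0.00129). It also fell by 0.58 with SAHA (adjusted p = 0.0277), and the combination response was 0.81 higher in MOLM-14 than in MV4-11 (adjusted p = 0.000571). Over the list that response was called higher in MOLM-14 for 2 of the 28 genes, PSIP1 and MLLT10 (0.50, adjusted p = 0.0394), and lower for 3, MLLT1 (−0.72, adjusted p = 0.00899), RBBP5 (−0.66, adjusted p = 0.0463) and MEN1 (−0.55, adjusted p = 0.0455). In MV4-11, MLLT10, a fusion partner that works with DOT1L, fell by 0.57 with the combination (adjusted p = 0.0235). MEN1, which encodes menin, rose by 0.71 (1784.17 ± 193 with the combination, adjusted p = 0.00799), and MLLT1, a reader in the elongation complex, rose by 0.57 (adjusted p = 0.0337). In MOLM-14 1 rose and 2 fell with the combination: ELL2, an elongation factor, changed by 0.89, and HCFC1 and WDR5, subunits of KMT2A complexes, by −1.22 and −0.58. ELL2 also rose with SAHA alone in both lines, by 0.91 in MOLM-14 and 0.90 in MV4-11.

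Of 19 other genes listed as KMT2A-fusion targets, 4 rose and none fell with the combination in MOLM-14, and 1 rose and 2 fell in MV4-11, where 5.96% and 8.94% of all probe sets were called in those lines. FLT3, MYB, BCL2, LMO2 and CDK6 stand both in this list and among the downstream genes of HOXA9 and MEIS1, so the counts of these lists are not separate. CCNA1, a cyclin gene, rose in both lines, by 1.13 in MOLM-14 and by 1.26 in MV4-11 (adjusted p = 0.0213 and 0.00249 from limma). RUNX2, a transcription factor, rose in MOLM-14 to 4287 ± 138 with the combination, against 2484.4 ± 350 with DMSO (log2 change 0.80, adjusted p = 0.00909). The histone demethylase family gene JMJD1C and the SUMO protease gene SENP6 fell in MV4-11, by 0.69 and 0.77 (adjusted p = 0.00531 and 0.00446). The combination response was higher in MOLM-14 for 4 of the 19 genes and lower for none, with RUNX2 at 0.81 and SENP6 at 0.76. Of all probe sets, 6.55% were called for this response. The list's median difference was 0.42, against 0.04 over all probe sets and 0.68 for the members.

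**Figure D4:**
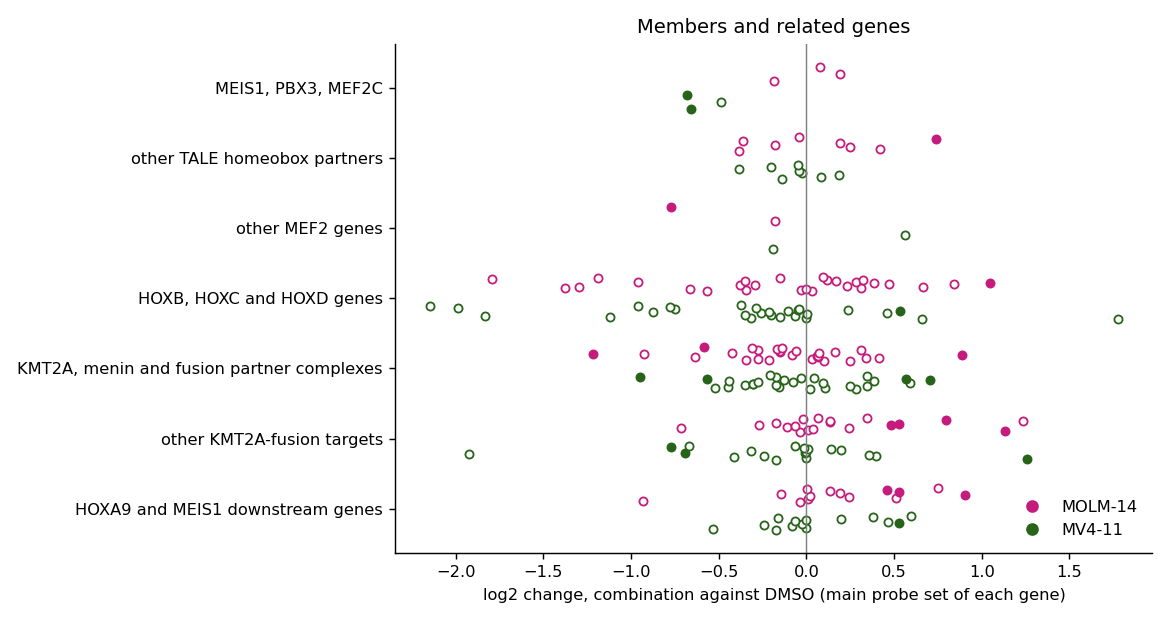
Log2 change with the combination against DMSO for the members and for 6 lists of related genes, 1 point per gene, MOLM-14 above MV4-11. Filled points passed an adjusted p under 0.05: PBX3 and MEF2C lie at −0.68 and −0.66 in MV4-11, and the lists hold called genes on both sides of 0.

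Of 14 measured genes named as acting downstream of HOXA9 and MEIS1, 3 rose with the combination in MOLM-14 and 1 in MV4-11, and none fell, beside 5.96% and 8.94% of all probe sets called in those lines. ID2, an inhibitor of helix-loop-helix factors, rose by 0.90 in MOLM-14 and 0.53 in MV4-11 (adjusted p = 0.00446 and 0.0234 from limma), and by 0.87 and 0.72 with SAHA alone. The transcription factor gene LMO2 rose in MOLM-14 by 0.53 (adjusted p = 0.0320). The combination response of the list was called higher in MOLM-14 for 2 of 14 genes, the transcription factor gene SOX4 (0.62, adjusted p = 0.0036) and FLT3 (0.49, adjusted p = 0.0169), and lower for 1, the growth factor receptor gene IGF1R (−0.61, adjusted p = 0.0263). That response was called for 6.55% of all probe sets. With DMSO, 2 of the 14 genes were called higher and 3 lower in MOLM-14 than in MV4-11, beside 10.1% of all probe sets. Among the lower was FLT3, the kinase that ABT-869 inhibits, at 10816.4 ± 350 against 14997.8 ± 150.5, a difference of −0.47 (adjusted p = 0.00143 from limma).

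Of 27 measured HOXB, HOXC and HOXD genes, 5 were above a signal of 32 on all arrays. HOXC6 was the only gene of this list called with a treatment against DMSO, where the combination gave calls for 5.96% of all probe sets in MOLM-14 and 8.94% in MV4-11. It rose to 1607.13 ± 143 with the combination in MOLM-14, against 782.4 ± 136 with DMSO (log2 change 1.05, adjusted p = 0.00561 from limma), and by 0.65 with SAHA. In MV4-11 it rose by 0.53 with the combination (adjusted p = 0.0283), the opposite direction to PBX3 and MEF2C there. From the HOXA cluster, of 4 further genes listed HOXA2 alone had a probe set of its own, at 26.2 to 134.1 on the arrays, and it was not called in any comparison.

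HOXA11-AS, a long noncoding RNA gene antisense to the posterior end of the HOXA cluster, is no member and was chosen after its values were seen. The other neighbours of members looked at were HOXA2, HOXA-AS2, HOXA-AS3, PBX3-DT and MEF2C-AS1, all dim. In MOLM-14 the brightest HOXA-AS2 probe set, 242528_at, averaged 27.1 ± 22.6 with the combination and 55.8 ± 7.63 with DMSO (SD, n = 3 each), the opposite order to HOXA11-AS. Its other probe sets did not share that order. There 1562640_at averaged 27.5 ± 19.1 and 5.63 ± 3.61, and 230080_at 7.1 ± 5.82 and 6.73 ± 2.71, so HOXA-AS2 shows no clear direction. HOXA2 averaged 80.6 ± 21.4 and 46.7 ± 29.5. HOXA11-AS probe set 230666_at had signals of 628.4, 489 and 586.6 with the combination in MOLM-14, against 284.4, 335.3 and 275.9 with DMSO. It rose by 0.93 there (adjusted p = 0.0156 from limma). With SAHA alone in MOLM-14 it had 528.8, 472.1 and 475.3 and rose by 0.72 (adjusted p = 0.0424). In MV4-11 the same probe set had 304.7, 316.8 and 291.5 with the combination, against 479.1, 432.8 and 602.9 with DMSO, and it fell by 0.72 (adjusted p = 0.0405). The groups did not overlap in either line and lay in opposite order. The second probe set, 239950_at, had 240.9, 236 and 229.8 with the combination in MOLM-14, against 99.3, 68.4 and 130.5 with DMSO, a change of 1.29 that was not called (adjusted p = 0.0911). With SAHA alone in MOLM-14 it had 245.3, 269.9 and 251.8, above all DMSO arrays, and its change of 1.41 was not called either (adjusted p = 0.0691). In MV4-11 239950_at had 126.9, 152.2 and 114.7, against 199.1, 196.6 and 241.7, and fell by 0.70 (adjusted p = 0.0212). The difference between the lines was 1.64 and 1.99 (adjusted p = 0.000445 and 0.00653), the same sign as for MEIS1, PBX3 and MEF2C. With arrays centred on their medians it was 1.55 and 1.90 and both calls held (adjusted p = 0.00177 and 0.0171), while the falls in MV4-11 were not called (adjusted p = 0.0723 and 0.0651). With ABT-869 alone in MV4-11, 239950_at had 97, 98.2 and 97.8 and fell by 1.11 (adjusted p = 0.0138), and 230666_at changed by −0.77 (adjusted p = 0.103).

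**Figure D5:**
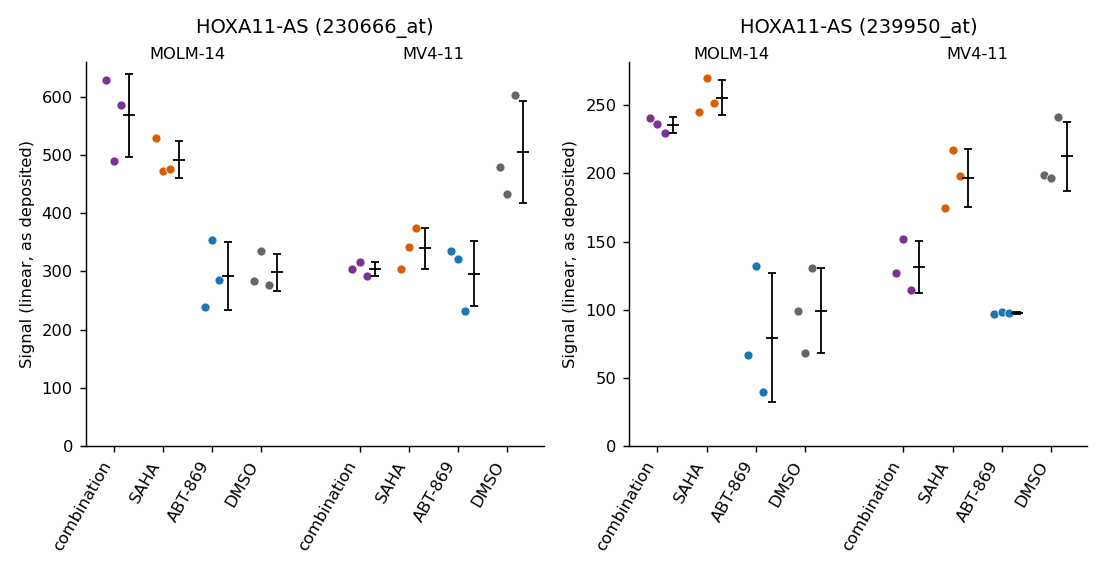
Linear signal of both HOXA11-AS probe sets on each array, by line and treatment. Points are single arrays and bars the mean and SD of 3 arrays: with the combination 230666_at lies at 489 to 628.4 in MOLM-14, above its DMSO arrays, and at 291.5 to 316.8 in MV4-11, below its DMSO arrays.

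Markers of monocytes were followed beside the members. In MV4-11 the summed signal of the 18 markers was 35095.8 to 35735.7 with the combination, 36456.5 to 38249.3 with SAHA and 33738.2 to 35817.9 with ABT-869, against 26085.5 to 27489.3 with DMSO. LYZ, the lysozyme gene, made up much of these sums, at 10939.1 to 18698.3 over the 24 arrays. In MV4-11, 8 of 18 rose with SAHA and 4 with ABT-869, and none fell with either, beside 2.46% and 0.862% of all probe sets called. With the combination 5 of 18 rose in MV4-11 and none fell, beside 8.94% of all probe sets called. Among the 5 were MNDA, which rose by 3.08, and MPEG1, by 2.87 (adjusted p = 5.87e-05 and 0.000505 from limma). In MOLM-14 the sum was 29592.5 to 31868.3 with the combination, 29254.6 to 31556.5 with SAHA and 29739.6 to 32340.4 with ABT-869, against 29319.8 to 31451.2 with DMSO. There 4 of 18 rose and 2 fell with the combination, with MNDA at 1.81 and S100A9 at −2.28, beside 5.96% of all probe sets called. The granulocyte and progenitor markers summed to 53716.9 to 55600.2 with the combination in MOLM-14, against 58099.1 to 72841.7 with DMSO. In MV4-11 they summed to 81670.8 to 94120.6 with the combination, against 69320.8 to 72909.9 with DMSO. AZU1 and ELANE made up much of these sums, at 20903.1 to 37846.3 and 12129 to 26260.4 over the 24 arrays. Of the 10 markers 3 rose and 1 fell with the combination in MV4-11, with a median log2 change of −0.0055. In MOLM-14 1 rose and 2 fell, with a median of −0.22. Of all probe sets, 8.94% and 5.96% were called in those lines. CD14, a defining monocyte surface marker, was at most 54.6 on any array. The part of these markers in the members' values was not tested, and in a bulk sample fewer cells of a kind and less RNA per cell cannot be told apart.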

How the data were processed

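RNA of 24 cultures (MOLM-14 and MV4-11, 4 treatments, 3 replicates) was hybridized to 1 Affymetrix U133 Plus 2.0 array each. The deposited intensity values are linear signals, 1 per probe set, which the authors had corrected for background, summarised and scaled. The sources used here do not name the software, and the 2% trimmed mean was near 500.1 on every array. Signals under 1 (2743 values, 0.209%) were raised to 1, log2 was taken and no further normalization was applied. Of 54675 probe sets, 62 controls were left out. Probe sets were named by the platform annotation, with 41091 naming 1 gene, 1801 several and 11721 unnamed here.

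The tool was limma (version 3.58.1) in R 4.3.3, with 1 linear model for each line over 12 arrays and 4 groups (8 residual degrees of freedom), and over 24 arrays and 8 groups (16) for differences between the lines. Moderated tests were two-sided with Benjamini-Hochberg adjustment over 54613 probe sets. The fits were run on simulated data with independent noise, where the median estimate of added changes had to lie near the added value. This checks the estimates only, not the rate of false calls or the calls on the real arrays. The members and lists were chosen with earlier results of these data known, and no list was tested as a set. Named from each list were the 2 largest rises and 2 largest falls at an adjusted p under 0.05 in a comparison. Named for MEIS1 and MEF2C were the 3 genes with the smallest root mean square difference of 8 centred group means. HOXA11-AS, HOXA2, the other neighbours of members and the marker levels fall outside this rule. Alternatives were quantile normalization, centring on array medians, raising signals under 32, testing without dim probe sets, limma-trend, the replicate number as a block, a joint fit of both lines, fits of the compared groups alone, other probe sets, at least a 2-fold change, and leaving out arrays. The planned rule left out the most deviant array of each group with a deviation over 0.3 over all probe sets. Every array passed that limit, at 0.643 to 0.709, so 8 arrays were left out that differed little from those kept. Leaving out the most deviant array of each group that had one over 0.3 among probe sets above the median signal (4 arrays, with MV4-11 combination replicate 2 kept) was added after seeing the data. Promoter windows were the 250 bases before each start in RefSeq (GRCh38.p14).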

Additional observations from a re-analysis of the deposited data

Results flagged for a closer look

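The change with the combination differed between the lines for MEIS1 (0.68), PBX3 (0.76) and MEF2C (0.48, log2 difference, MOLM-14 minus MV4-11), each at an adjusted p under 0.05 in the limma fit over 24 arrays. In MOLM-14 the changes against DMSO were 0.19, 0.07 and −0.18, and in MV4-11 they were −0.49, −0.68 and −0.66, in the same order of genes. The difference was of the same sign at all 6 probe sets and passed the test at 3 of them.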

How the results depend on the processing

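With the combination in MV4-11 2 members were called in 12 of 12 fits without 1 array. It gave 0 members when only the groups compared were fitted or when at least a 2-fold change was asked. It also gave 0 when the most deviant array of each of the 8 groups was left out (all probe sets). Over all probe sets 4880 were called as reported, 702 with only the groups compared and 0 with the 8 arrays left out. That last setting could thus call no member. MEIS1 was also called with the combination in MV4-11, so that 3 members were, under other settings. These were quantile normalization (adjusted p = 0.0496 from limma), the floor of 32 (0.0114), no dim probe sets (0.00899), limma-trend (0.00435) and 1 fit over all arrays (0.00984). The combination against ABT-869 in MV4-11 gave 0 members instead of 1 without any 1 array (0 to 0), with median centring, the replicate block, only the groups compared, a 2-fold change and both ways of leaving out deviant arrays, but 2 with a floor of 32 and 3 with limma-trend or without dim probe sets. MOLM-14 against MV4-11 with DMSO gave 1 to 2 members without 1 array (2 without MOLM-14 DMSO replicate 3 or MV4-11 combination replicate 3). It gave 0 with median centring, the replicate block, only the groups compared, the 8 arrays left out or a 2-fold change. It gave 2 with quantile normalization or without 4 deviant arrays, and 3 with the floor, limma-trend or no dim probe sets. The response to the combination between the lines gave 2 to 3 members without 1 array, 1 with only the groups compared, and 0 with centring, 8 arrays left out or a 2-fold change. SAHA in MV4-11 gave 2 instead of 0 with the floor, limma-trend or no dim probe sets and 1 in 1 fit over all arrays, and so did the combination against SAHA in MV4-11. The floor gave 1 for ABT-869 in MV4-11 (as did limma-trend), for the combination in MOLM-14 and for the combination against ABT-869 in MOLM-14. The number of calls over all probe sets moved with the setting as well. For the combination in MV4-11 it was 3099 with the replicate block and 7796 with limma-trend. The combination against ABT-869 in MV4-11 had 2023 as reported, 2 with only the groups compared and 0 without the 8 arrays. The response to the combination between the lines had 3577, 1324 and 583 in that order. The cause of these changes was not tested.

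Changes that took the other sign were small and not called. With median centring MEF2C was 0.0057 for ABT-869 in MOLM-14 and 0.023 between the lines with DMSO. SAHA in MOLM-14 then gave 0.14 for MEIS1, 0.17 for PBX3 and 0.15 for MEF2C, and the combination against SAHA gave −0.0080 for MEIS1 and −0.15 for PBX3. Over all probe sets every array deviated by over 0.3, so the 8 arrays left out were only the most deviant of their groups. Without them PBX3 was 0.085 for SAHA and −0.018 for the combination against SAHA in MOLM-14. The ABT-869 response of MEIS1 then differed by −0.10 between the lines. Without the 4 deviant arrays MEIS1 was 0.0016 for SAHA in MOLM-14. Probe set 1559477_s_at of MEIS1 gave 0.066 in MOLM-14 and 0.036 in MV4-11 for ABT-869. Probe set 207968_s_at of MEF2C gave 0.032 for ABT-869 in MV4-11, and line differences of −0.12 for ABT-869 and −0.17 for SAHA. Without 1 array the range was −0.16 to 0.0016 for MEIS1 and −0.17 to 0.073 for PBX3 with SAHA in MOLM-14, −0.089 to 0.011 for PBX3 and −0.016 to 0.0019 for MEF2C with ABT-869 in MOLM-14, and −0.078 to 0.12 for the ABT-869 response of MEIS1 between the lines.

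Centring on medians moved the split of calls over all probe sets. SAHA in MOLM-14 gave 3884 higher and 525 lower instead of 1494 and 1410 (median change 0.11 instead of −0.14). MOLM-14 against MV4-11 gave 5355 and 758 instead of 2708 and 2830 (0.11 instead of −0.15), and the combination response between the lines 852 and 1652 instead of 1713 and 1864. Labels give the groups shared replicate numbers, and they were not treated as pairs because deviations did not correlate over 0.1 in every pair of 1 number. In MOLM-14 6 of 18 such pairs did (median r 0.064), against 2 of 36 of different numbers (median −0.020), and in MV4-11 1 of 18 (median −0.014), against 7 of 36 (median 0.0010). With the replicate block the MV4-11 combination gave an adjusted p of 0.0269 for PBX3 and 0.0212 for MEF2C, and the line difference of MEIS1 0.0525. The baseline difference of PBX3 then had an adjusted p of 0.0679 and MEF2C against ABT-869 0.0866. Nothing says that the cultures were independent beyond the word biological in the paper and in the sample titles, and p-values measure the spread between these arrays.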
